A study of Homo sapiens with 9 samples.

Results

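The genes described here are 51 genes of mitosis and of the spindle checkpoint, chosen by name from the gene table of an RNA sequencing experiment. All 51 were found among the 27673 genes of the table, and all 51 passed the filter on low counts that left 15551 genes for testing. They encode the cyclins and phosphatases that start mitosis, the kinases that steer it, the spindle checkpoint, the kinetochore, the machinery that destroys cyclin and securin, spindle motors, cytokinesis factors, chromosome proteins and a pair of transcription factors. Mitosis begins when cyclin B and its kinase CDK1 are switched on by CDC25 phosphatases. Chromosomes are then captured through kinetochores, and the spindle checkpoint holds back the anaphase-promoting complex (APC/C) until every kinetochore is attached. Most of these genes are transcribed in a wave at the end of the cell cycle, under the DREAM and B-MYB-MuvB complexes and FOXM1, and their summed mRNA is widely read as a mark of proliferation in tumors.

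The cells were A498, an established human line of clear cell renal cell carcinoma (ccRCC) that lacks functional VHL, the protein that normally directs HIF2α for destruction. They carried a lentiviral short hairpin RNA (shRNA) with a control sequence (shControl), against BMAL1 (shBMAL1) or against ARNT (shARNT), and were selected with puromycin. BMAL1 pairs with CLOCK to drive circadian transcription, ARNT pairs with the hypoxia-inducible factors, and the study asked whether BMAL1 also serves HIF2α in these cells. Each group had 3 biological replicates, so there were 9 libraries, and each depletion rested on 1 hairpin in 1 cell line. All groups shared the virus and the drug selection, and no time or synchronization of the cell cycle was given in the labels. Whether replicates came from separate cultures was not given either, so the p-values measure the spread between these libraries. In bulk RNA of this kind, fewer dividing cells and less RNA per dividing cell cannot be told apart.

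Library totals lay between 35269851 and 36099075 counts, and counts of the 51 genes ranged from 56 to 10287 per library. Levels were computed as CPM, read counts relative to library size after TMM scaling, changes as log2 fold changes ± standard error (SE), and adjusted p-values come from the quasi-likelihood F-test of edgeR with Benjamini-Hochberg adjustment over all 15551 genes, with genes called under 0.1. ARNT was at 48.1, 50.6 and 52.6 CPM in shControl, 33.0, 33.3 and 30.5 in shBMAL1, and 9.32, 9.13 and 9.95 in shARNT. BMAL1, listed as ARNTL, was at 16.7, 15.9 and 16.2 CPM in shControl, 5.41, 5.54 and 4.12 in shBMAL1, and 23.9, 25.1 and 22.5 in shARNT. Each target was thus lowest in its own depletion, and ARNT also fell in shBMAL1. Of 8 markers of kidney epithelium and ccRCC, 7 stood at a mean of 9.85 CPM (PAX2) or more in shControl, NDUFA4L2 stayed under 1 CPM in all libraries, and CA9 was down to 1.06 CPM in shARNT. Their summed level ran from 8091 to 8118 CPM in shControl libraries, from 5946 to 6385 with shBMAL1 and from 2119 to 2284 with shARNT, and most of it was vimentin (VIM), which fell in both. EPAS1, the gene of HIF2α, fell in both too, with a mean of 345 CPM in shControl, 233 in shBMAL1 and 74.3 in shARNT. Not all moved this way: the lineage factor PAX8 was at a mean of 36.0 CPM in shControl, 40.7 in shBMAL1 and 100.3 in shARNT, and KRT18 at 566, 472 and 563 CPM. Of 4 blood cell markers, CD3E and HBB were at 0 in all libraries and PTPRC stayed under 1 CPM, while CD68 made up nearly all of their sum, 1786 to 1905 CPM for shControl, 1753 to 1865 for shBMAL1 and 136 to 148 for shARNT. All 3 endothelial markers (PECAM1, VWF, CDH5) stayed under 1 CPM. Of 4 fibroblast markers, COL1A2 and DCN stayed under 1 CPM, and the sum, mostly COL1A1, was 231 to 245 CPM in shControl, with 34.2 to 37.3 CPM in the shBMAL1 and 40.7 to 50.7 CPM in the shARNT libraries. Their part in the results was not tested.

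**Figure D1:**
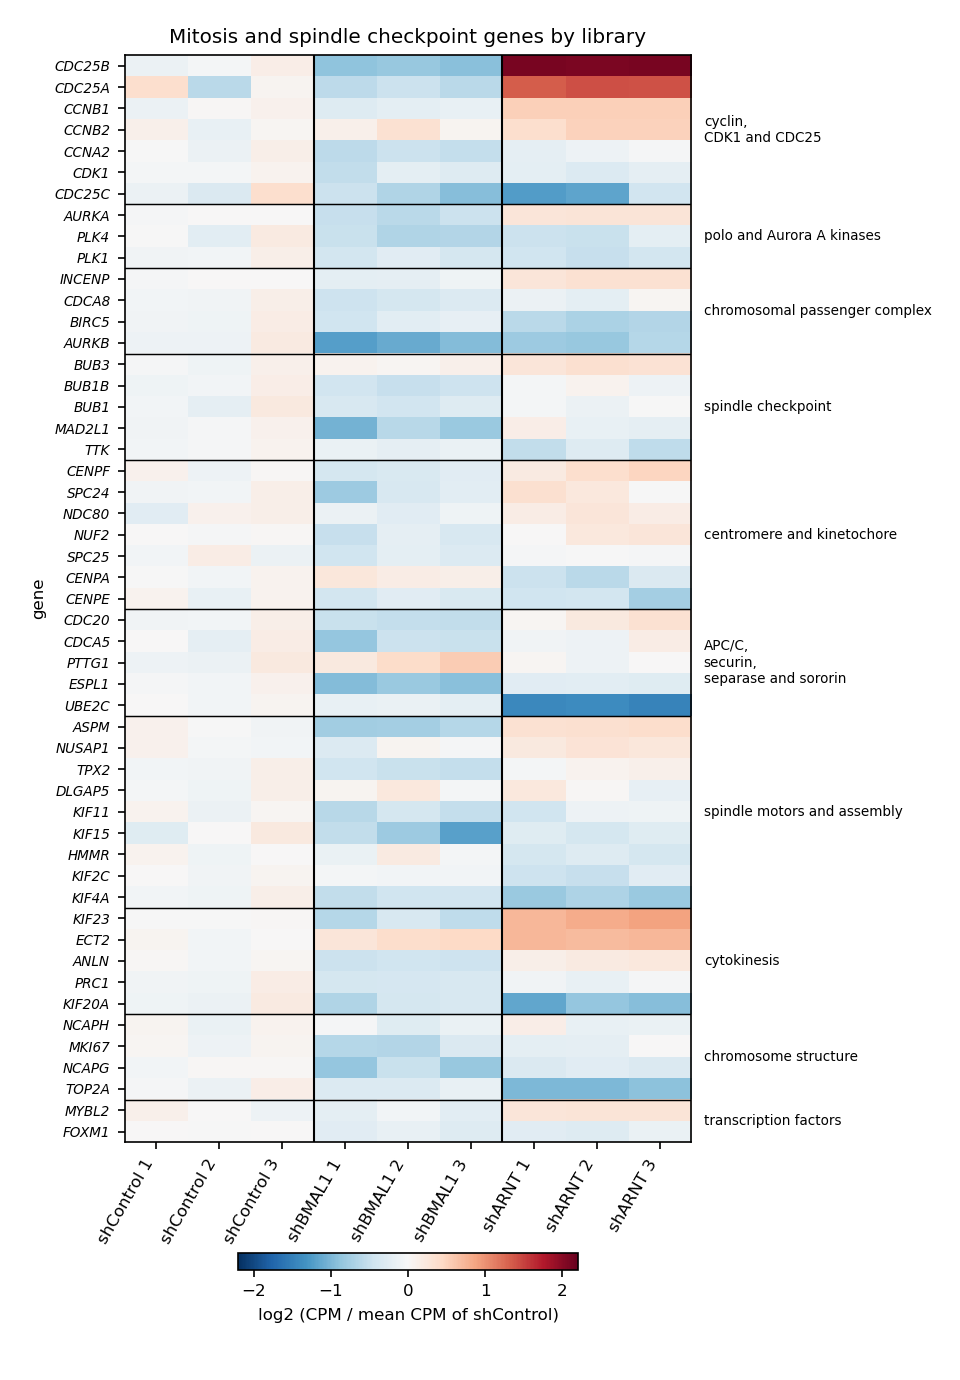
Each row is 1 of the 51 genes, grouped by role, and each column is 1 library; color is the log2 ratio of its CPM to the mean CPM of the 3 shControl libraries. The shBMAL1 columns are mostly blue, whereas the shARNT columns hold both red and blue genes, with CDC25B and UBE2C at the ends.

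The summed level of the 51 genes was taken first, in CPM after TMM scaling, which is not a share of all reads. It was 1695, 1628 and 1813 CPM in shControl, 1313, 1379 and 1388 CPM in shBMAL1, and 1800, 1834 and 1883 CPM in shARNT. All shBMAL1 libraries lay below all shControl libraries, and the shARNT libraries overlapped with them. The means were 1712 ± 93.5, 1360 ± 41.0 and 1839 ± 41.4 CPM (SD, n = 3). CDC25B weighed on the last of these. Without CDC25B, left out after the values were seen, the means were 1651 ± 88.9 in shControl, 1327 ± 40.9 in shBMAL1 and 1581 ± 40.8 in shARNT. The mean sum in shARNT thus stood above shControl with CDC25B and below it without. Libraries of these groups overlapped without CDC25B too, at 1569 to 1745 CPM in shControl and 1542 to 1624 in shARNT. Scaled by library size alone, which gives the share of all counts, shControl libraries lay at 1520 to 1689 CPM, shBMAL1 at 1273 to 1340 and shARNT at 1999 to 2071, and no groups overlapped (means 1603, 1316 and 2030 CPM). The place of shARNT relative to shControl thus depended on scaling.

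**Figure D2:**
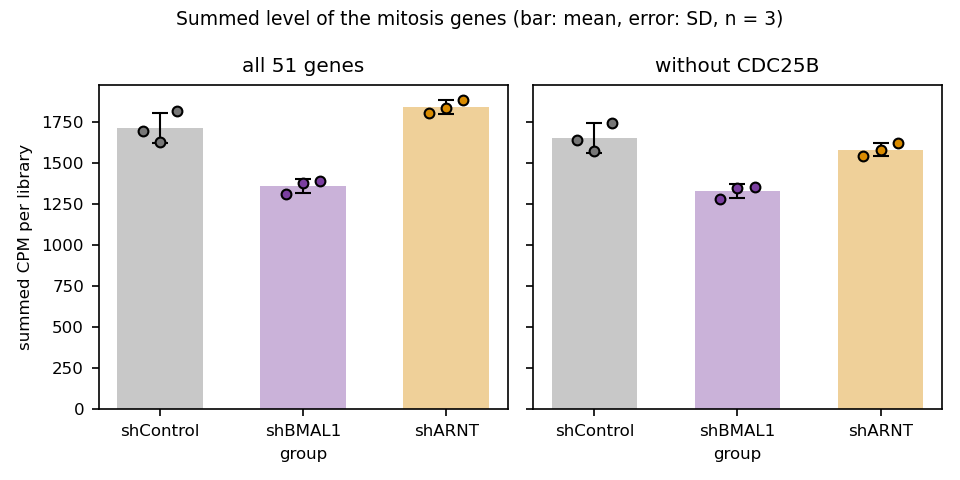
Bars show the mean summed CPM of the mitosis genes per group, error bars the SD over 3 libraries and points the single libraries, for all 51 genes on the left and without CDC25B on the right. The shBMAL1 libraries are lowest in both panels, at 1313 to 1388 CPM with all genes, and the shARNT mean drops from 1839 to 1581 CPM when CDC25B is left out.

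Depletion of BMAL1 was compared with shControl to see whether loss of the clock factor moved the mitotic genes. The direction was nearly uniform: 39 of the 51 genes fell, 2 rose, and 10 were not called. The largest falls were in AURKB, the kinase of the chromosomal passenger complex, in ESPL1, the separase that cuts cohesin, and in CDC25B. The 2 rises were in ECT2, the exchange factor that activates RhoA for cytokinesis, and in PTTG1, the securin that restrains separase. The median log2 fold change was -0.35, with a range from -1.09 to 0.40, against a median of -0.0015 over all genes tested. Of all genes tested, 63.3% were called, 31.9% higher and 31.5% lower, so 76.5% of the mitosis genes fell where 31.5% of all genes did. CPM ranges of shBMAL1 and shControl did not overlap in 41 of the 51, against 62.2% of all genes. Most changes were small: 1 of the 51 (AURKB, 1.96%) exceeded a log2 change of 1 in size, where 10.5% of all genes tested did. Against a minimum fold of 1.5, 5 of the 51 were called, all of them falls, and 13.6% of all genes. The third shControl library held the highest of the 3 control values in 37 of the 51 genes, and without it 39 fell and 3 rose.

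Depletion of ARNT was compared with shControl in the same way, and here the genes split. In shARNT, 15 of the 51 rose, 20 fell and 16 were not called. CDC25B and CDC25A, phosphatases that activate the cyclin-dependent kinases, rose most, followed by KIF23, a motor of the central spindle. UBE2C, the ubiquitin-conjugating enzyme of the APC/C, fell most, followed by the cytokinesis motor KIF20A and by TOP2A, the topoisomerase that untangles sister DNA. The median log2 fold change was -0.05, with a range from -1.42 to 2.08 and a standard deviation across genes of 0.58, against 0.31 in shBMAL1; over all genes tested these standard deviations were 1.24 and 0.72. Of all genes tested, 81.8% were called in shARNT, 40.5% higher and 41.3% lower, and of the mitosis genes 68.6% were called. CPM ranges did not overlap in 32 of the 51, where 79.8% of all genes did not overlap. A log2 change beyond 1 was seen in 3 of the 51 (5.88%) and in 31.7% of all genes tested. The balance of directions depended on scaling. The TMM factors lay between 0.932 and 0.944 for shControl and between 1.10 and 1.11 for shARNT. With library size alone the median of all genes moved to 0.23, and their share of higher genes among those called from 49.6% to 60.5%. The mitosis genes then counted 26 higher and 12 lower with a median of 0.18, and their share went from 42.9% to 68.4%. The falls of PLK4, KIF15, NCAPG, ESPL1 and HMMR in shARNT were then not called. Those of CDK1, KIF11 and FOXM1 were lost as well, as their signs turned.

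**Figure D3:**
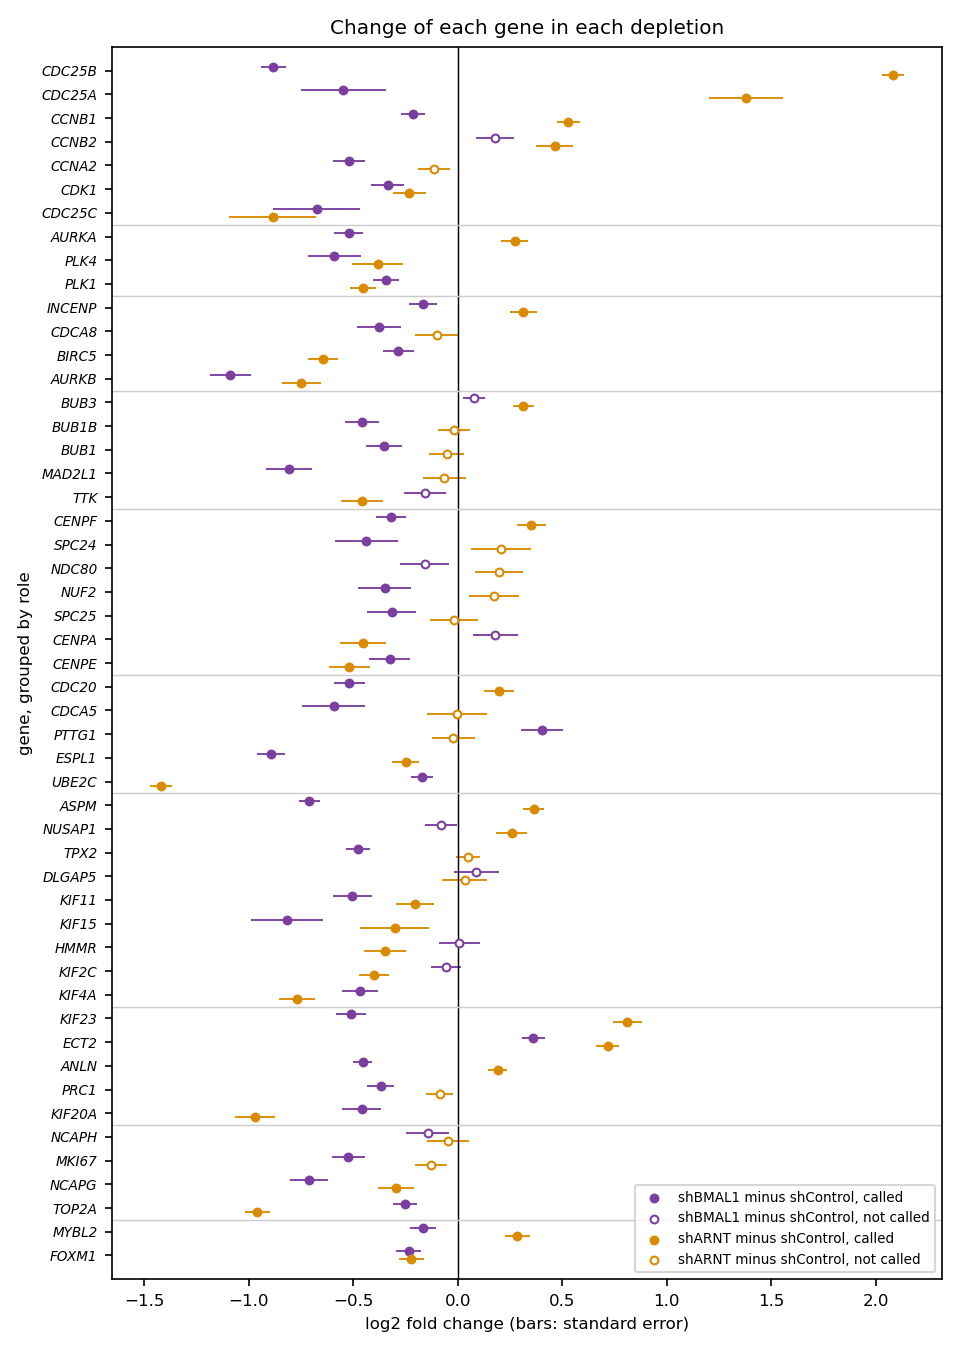
For each gene, grouped by role, points show the log2 fold change in shBMAL1 (purple) and shARNT (orange) against shControl, with bars for the standard error and open points for genes not called; both comparisons use the same 3 shControl libraries. Purple points lie mostly left of 0 and reach -1.09, while orange points lie on both sides, from -1.42 to 2.08.

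The depletions were also compared with each other directly. No control library enters this difference, though the filter, the scaling and the estimate of the spread came from all 9 libraries. Relative to shBMAL1, 33 of the 51 genes were higher in shARNT, 11 were lower and 7 were not called. CDC25B, CDC25A, KIF23 and ASPM, which organizes spindle poles, were higher by the most, with log2 differences of 2.96, 1.93, 1.32 and 1.07. UBE2C (-1.25), TOP2A (-0.71), the centromeric histone CENPA (-0.63), KIF20A (-0.51), PTTG1 (-0.42), BIRC5 (-0.36), HMMR (-0.36), KIF2C (-0.35), KIF4A (-0.30), TTK (-0.30) and CENPE (-0.19) were lower. The CENPE call was lost under 8 of 18 alternatives, among them DESeq2 (adjusted p = 0.118) and the fits without shARNT replicate 3 (0.408), shBMAL1 replicate 2 (0.257) or shBMAL1 replicate 3 (0.113). With library size alone CENPE, TTK, KIF4A and HMMR were not called. The median log2 difference was 0.34, against -0.01 over all genes tested. Of all genes, 81.2% were called, 40.1% higher and 41.1% lower, and the mitosis genes were called in 86.3%, with 64.7% higher. Ranges did not overlap in 44 of the 51, against 79.6% of all genes. The genes not called were CDC25C, CDK1, DLGAP5, FOXM1, NCAPH, PLK1 and PLK4.

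**Figure D4:**
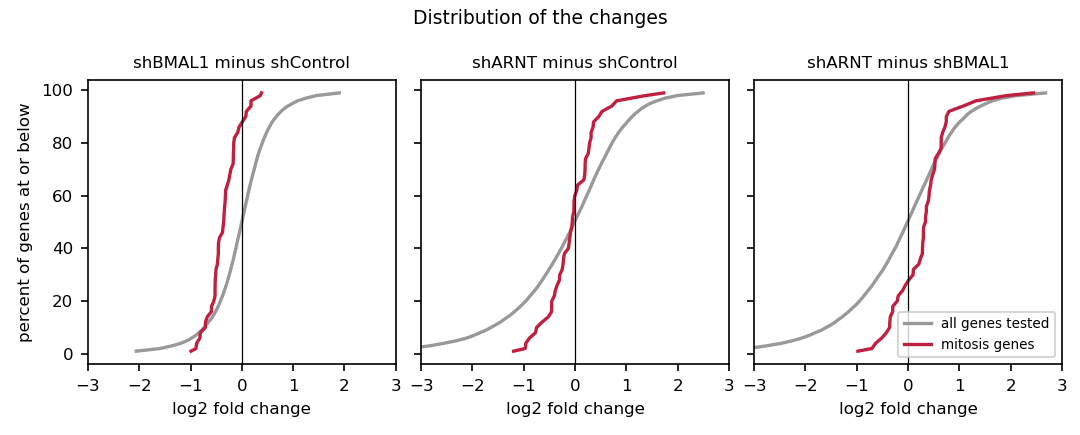
Each panel plots, for 1 comparison, the percent of genes (y axis) at or below a log2 fold change (x axis) for all 15551 genes tested (gray) and the 51 mitosis genes (red). The red curve is shifted left in shBMAL1, with a median of -0.35, steep around 0 in shARNT, and shifted right in the direct comparison, with a median of 0.34.

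Several genes that start mitosis moved in opposite directions in the depletions. In shBMAL1, 6 of the 7 cyclin, CDK1 and CDC25 genes fell, and in shARNT 4 rose and 2 fell. The share called was 85.7% in each, against 63.3% of all genes tested in shBMAL1 and 81.8% in shARNT. CDC25B was at 56.0, 59.5 and 67.5 CPM in shControl, 32.8, 34.1 and 32.3 in shBMAL1, and 258, 257 and 259 in shARNT. The shARNT values stood far above the highest control, the shBMAL1 values lay below every control, and no groups overlapped (log2 2.08 ± 0.05, adjusted p = 5.18e-18 in shARNT; log2 -0.88 ± 0.06, adjusted p = 8.1e-11 in shBMAL1). CDC25A, which acts from the start of S phase onward, was at 3.33, 1.70 and 2.69 CPM in shControl, 1.73, 1.86 and 1.71 in shBMAL1, and 6.46, 6.85 and 6.80 in shARNT. Its shARNT libraries were all above the others, while shBMAL1 overlapped with a widely spread control (log2 1.38 ± 0.18, adjusted p = 4.89e-07 in shARNT; log2 -0.55 ± 0.20, adjusted p = 0.0259 in shBMAL1, a call lost without shControl replicate 1, with an adjusted p of 0.199). CDC25C, the phosphatase with the classical role at mitotic entry, went the other way at 5.02, 4.40 and 7.05 CPM in shControl, 3.98, 3.45 and 2.88 in shBMAL1, and 2.35, 2.45 and 4.11 in shARNT. Both depletions were below all controls (-0.89 ± 0.21 in shARNT and -0.68 ± 0.21 in shBMAL1).

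Among the cyclins, CCNB1, the main partner of CDK1 at mitotic entry, stood at 48.7, 54.1 and 56.6 CPM in shControl, 43.8, 45.9 and 47.5 in shBMAL1, and 76.8, 76.3 and 76.6 in shARNT. It rose in shARNT (log2 0.53 ± 0.06, adjusted p = 2.68e-08) and fell in shBMAL1 (log2 -0.22 ± 0.06, adjusted p = 0.0028), and no ranges overlapped. CCNB2, the Golgi-associated B cyclin, was at 15.2, 12.6 and 14.5 CPM in shControl, 15.2, 17.8 and 14.7 in shBMAL1, and 18.2, 19.9 and 20.1 in shARNT. Only the shARNT libraries were above all controls (log2 0.46 ± 0.09, adjusted p = 9.77e-05), and in shBMAL1 the change of 0.18 ± 0.09 was not called. CCNA2, which serves S phase and early mitosis, was at 23.6, 21.7 and 25.9 CPM in shControl, 16, 17 and 16.5 in shBMAL1, and 20.7, 21.9 and 23.2 in shARNT. It fell in shBMAL1 (log2 -0.52 ± 0.08, adjusted p = 8.11e-06) and overlapped with controls in shARNT, where its change of -0.11 ± 0.07 was not called. CDK1 itself was at 24.4, 24.6 and 26.6 CPM in shControl, 17.3, 21.8 and 20.7 in shBMAL1, and 21.7, 20.6 and 22 in shARNT, below controls in both depletions (-0.34 ± 0.08 in shBMAL1, adjusted p = 0.0012, and -0.23 ± 0.08 in shARNT, adjusted p = 0.0107). With library size alone the shARNT value of CDK1 was 0.00472.

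The polo-like and Aurora kinases build and separate centrosomes, correct attachments and drive cytokinesis. PLK1 was at 56.0, 57.0 and 64.9 CPM in shControl, 44.8, 50.01 and 45.3 in shBMAL1, and 43.6, 41.8 and 44.7 in shARNT, and PLK4, which starts centriole duplication, at 8.65, 7.38 and 9.96 CPM in shControl, 6.20, 5.49 and 5.56 in shBMAL1, and 6.26, 6.19 and 7.46 in shARNT. PLK1 was below all controls in both depletions (-0.45 ± 0.06 in shARNT and -0.34 ± 0.06 in shBMAL1), and PLK4 fell in both (-0.38 ± 0.12 in shARNT and -0.59 ± 0.13 in shBMAL1) with some overlap in shARNT. AURKA, the centrosomal Aurora kinase, was at 20.6, 21.1 and 20.9 CPM in shControl, 14.7, 13.9 and 15 in shBMAL1, and 25, 25.3 and 25.3 in shARNT. Its tight replicates put shARNT above (log2 0.27 ± 0.06, adjusted p = 0.000704) and shBMAL1 below all controls (log2 -0.52 ± 0.07, adjusted p = 1.48e-06). AURKB was at 21.7, 21.7 and 27 CPM in shControl, 10.1, 10.9 and 12.1 in shBMAL1, and 13.4, 13.2 and 15.2 in shARNT. It had the deepest fall of the 51 genes in shBMAL1 (log2 -1.09 ± 0.10, adjusted p = 9.87e-09) and fell by less in shARNT (log2 -0.75 ± 0.09, adjusted p = 4.59e-07), with both depletions below all controls. BIRC5 (survivin), a subunit of the same complex, was at 46.1, 45.2 and 53.9 CPM in shControl, 35.5, 41.1 and 42.6 in shBMAL1, and 32.1, 29.8 and 31.0 in shARNT. It fell in both depletions, more in shARNT (-0.64 ± 0.07) than in shBMAL1 (-0.29 ± 0.07), and the difference between them passed the test (adjusted p = 0.000191). INCENP, the scaffold that activates AURKB, rose in shARNT (0.31 ± 0.06) and fell in shBMAL1 (-0.17 ± 0.07), the latter lost under 4 of 18 alternatives, among them without shBMAL1 replicate 1 (adjusted p = 0.114). CDCA8 (borealin) fell in shBMAL1 (-0.38 ± 0.11) and was not called in shARNT (-0.10 ± 0.10), and its direct difference was called (log2 0.28 ± 0.10, adjusted p = 0.0209), though not without shARNT replicate 3 (adjusted p = 0.116).

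The spindle checkpoint proper had 3 of 5 genes lower in shBMAL1, and 1 higher and 1 lower in shARNT. Shares called were 60% and 40%, against 63.3% and 81.8% of all genes tested. MAD2L1, the MAD2 protein that captures CDC20 in the checkpoint complex, was at 16.1, 16.8 and 18.2 CPM in shControl, 8.28, 11.2 and 9.73 in shBMAL1, and 18.9, 15.2 and 14.9 in shARNT. It fell in shBMAL1 (log2 -0.81 ± 0.11, adjusted p = 3.07e-06), and its shARNT range spanned the controls. BUB1B (BUBR1) was at 21.1, 21.7 and 25.2 CPM in shControl, 16.9, 16 and 16.5 in shBMAL1, and 22, 24 and 21.0 in shARNT, and BUB1, the kinase that recruits it, at 25.1, 22.6 and 30.3 CPM in shControl, 20.3, 19.5 and 21.3 in shBMAL1, and 25.3, 23.9 and 26.0 in shARNT. Both fell in shBMAL1 (-0.46 ± 0.08 and -0.35 ± 0.09) and were not called in shARNT (-0.02 ± 0.08 and -0.05 ± 0.08). BUB3, which carries both to kinetochores, was at 74.7, 71.7 and 82.8 CPM in shControl, 80.5, 79.0 and 82.1 in shBMAL1, and 91.7, 97.5 and 95.6 in shARNT, above all controls in shARNT (log2 0.31 ± 0.05, adjusted p = 1.43e-05) and overlapping with them in shBMAL1. TTK (MPS1), the kinase at the head of the checkpoint, was at 9.85, 10.1 and 10.8 CPM in shControl, 9.33, 9 and 9.26 in shBMAL1, and 7.02, 8.42 and 7 in shARNT. It fell in shARNT (log2 -0.46 ± 0.10, adjusted p = 0.000369), and in shBMAL1 all libraries were below the controls but the change of -0.16 ± 0.10 was not called (adjusted p = 0.186).

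At the centromere and kinetochore, 5 of 7 genes fell in shBMAL1, and 1 rose and 2 fell in shARNT. Calls thus covered 71.4% and 42.9% of them, against 63.3% and 81.8% of all genes tested. CENPF, a large protein of the outer kinetochore, was at 49.4, 42.9 and 47.1 CPM in shControl, 35.6, 36.7 and 39.3 in shBMAL1, and 53.2, 60.02 and 64.7 in shARNT. It lay above all controls in shARNT (log2 0.35 ± 0.07, adjusted p = 0.000103) and below them in shBMAL1 (log2 -0.32 ± 0.07, adjusted p = 0.000625). CENPE, the motor that brings chromosomes to the metaphase plate, was at 17.4, 14.8 and 17.3 CPM in shControl, 12.5, 13.9 and 13 in shBMAL1, and 12.2, 12.5 and 9.83 in shARNT, lower in both depletions (-0.52 ± 0.10 in shARNT and -0.33 ± 0.10 in shBMAL1). CENPA, the histone that marks the centromere, was at 7.42, 7.2 and 7.87 CPM in shControl, 8.89, 8.36 and 8.20 in shBMAL1, and 5.40, 4.98 and 6.02 in shARNT. The shARNT libraries were lowest (log2 -0.45 ± 0.11, adjusted p = 0.000907), whereas the shBMAL1 libraries stood above the controls without a call (0.18 ± 0.11, adjusted p = 0.166). NDC80, the microtubule-binding arm of the kinetochore, was at 5.83, 7.41 and 7.66 CPM in shControl, 6.35, 5.86 and 6.5 in shBMAL1, and 7.78, 8.37 and 7.81 in shARNT and was called in neither depletion. Its partners in the NDC80 complex, NUF2, SPC24 and SPC25, fell in shBMAL1, with log2 fold changes from -0.44 to -0.32, and were not called in shARNT. All 3 of these falls were lost without shBMAL1 replicate 1 (adjusted p = 0.102 to 0.112), and that of SPC25 also without shControl replicate 2 (0.145). All 4 were higher in shARNT than in shBMAL1, with differences of 0.30 to 0.64, that of SPC25 not without shBMAL1 replicate 1 (adjusted p = 0.103).

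The genes that trigger anaphase counted 4 lower and 1 higher in shBMAL1, and 2 lower and 1 higher in shARNT. Shares called were 100% and 60%, against 63.3% and 81.8% of all genes tested. UBE2C was at 70.2, 66.8 and 72.5 CPM in shControl, 62.7, 63.3 and 60.1 in shBMAL1, and 26.2, 26.9 and 25.1 in shARNT. The shARNT level was well under the lowest control (log2 -1.42 ± 0.05, adjusted p = 1.91e-15), and the shBMAL1 level was slightly below the controls (log2 -0.17 ± 0.05, adjusted p = 0.00672). CDC20, the APC/C activator that the checkpoint inhibits, was at 38.0, 38.6 and 43.9 CPM in shControl, 28.5, 27.9 and 27.6 in shBMAL1, and 41.3, 46.4 and 50.5 in shARNT. It fell in shBMAL1 with no overlap (log2 -0.52 ± 0.07, adjusted p = 4.14e-06), and in shARNT it was higher with overlap (log2 0.20 ± 0.07, adjusted p = 0.0149), a call lost without shARNT replicate 3 (adjusted p = 0.117). PTTG1 was at 12.9, 12.7 and 16 CPM in shControl, 16.1, 18.3 and 20.5 in shBMAL1, and 14.3, 12.8 and 13.9 in shARNT, above all controls in shBMAL1 (log2 0.40 ± 0.10, adjusted p = 0.00196) and within their range in shARNT. ESPL1 was at 31.0, 30.4 and 33.9 CPM in shControl, 16.5, 18.1 and 16.7 in shBMAL1, and 26.8, 27.1 and 26.3 in shARNT, so securin and separase moved apart in shBMAL1 (log2 -0.89 ± 0.07, adjusted p = 5.68e-10 for ESPL1). ESPL1 also fell in shARNT (log2 -0.25 ± 0.06, adjusted p = 0.00145), by less than in shBMAL1 (direct difference 0.65 ± 0.07). CDCA5 (sororin), which protects cohesin, fell in shBMAL1 (log2 -0.59 ± 0.15, adjusted p = 0.00232) and was not called in shARNT. PTTG1 reads may be shared with the near-identical gene PTTG2, which held 16 to 40 counts per library and was not called in any comparison.

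Of 9 genes for spindle motors and assembly, 5 fell in shBMAL1, and 2 rose and 5 fell in shARNT. These shares called, 55.6% and 77.8%, lay near those of all genes tested (63.3% and 81.8%). KIF11 (Eg5), the motor that pushes the poles apart, was at 23.4, 20.1 and 22.8 CPM in shControl, 14.5, 16.8 and 15.4 in shBMAL1, and 16.3, 20.4 and 20.7 in shARNT. It fell in shBMAL1 (log2 -0.50 ± 0.09, adjusted p = 0.000113) and marginally in shARNT (log2 -0.21 ± 0.09, adjusted p = 0.0452), a call lost without shARNT replicate 1 (adjusted p = 0.285), without shControl replicate 1 (0.150) and without shControl replicate 3 (0.119). With library size alone the shARNT value of KIF11 was 0.0297. TPX2, the activator of AURKA, was at 68.9, 67.5 and 77.9 CPM in shControl, 52.9, 51.1 and 49.9 in shBMAL1, and 69.1, 75.1 and 77.5 in shARNT, below all controls in shBMAL1 (log2 -0.48 ± 0.06, adjusted p = 8.81e-07) and within them in shARNT. ASPM fell in shBMAL1 (log2 -0.71 ± 0.05, adjusted p = 2.69e-10) and rose in shARNT (log2 0.36 ± 0.05, adjusted p = 1.04e-06), with no overlap. KIF15 fell in both (-0.82 ± 0.17 in shBMAL1, -0.30 ± 0.16 in shARNT, the latter lost under 11 of 18 alternatives), as did KIF4A (-0.47 ± 0.08 in shBMAL1, -0.77 ± 0.08 in shARNT), a chromosome-bound motor. KIF4B, a near-identical copy of KIF4A that may share its reads, fell in both as well (-0.88 ± 0.13 in shBMAL1, -0.92 ± 0.13 in shARNT). KIF2C, a microtubule depolymerase, and HMMR, a spindle assembly factor, fell in shARNT (-0.40 ± 0.07 and -0.35 ± 0.10) and were not called in shBMAL1. NUSAP1 rose in shARNT (0.26 ± 0.08) and was not called in shBMAL1, and DLGAP5 (HURP) was called in no comparison.

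For cytokinesis, 4 of 5 genes fell in shBMAL1 and 1 rose, and 3 rose and 1 fell in shARNT. Calls thus covered 100% and 80% of them, against 63.3% and 81.8% of all genes tested. ECT2 was at 41.2, 38.0 and 40.02 CPM in shControl, 47.6, 51.8 and 53.6 in shBMAL1, and 65.7, 64.1 and 66.0 in shARNT, the 1 gene of the 51 that rose in both depletions (log2 0.36 ± 0.06, adjusted p = 1.28e-05 in shBMAL1; log2 0.72 ± 0.05, adjusted p = 1.94e-10 in shARNT). KIF23 (MKLP1), the motor of the centralspindlin complex that brings ECT2 to the midzone, was at 25.2, 25.3 and 25.9 CPM in shControl, 16.4, 19.9 and 17.3 in shBMAL1, and 42.4, 44.8 and 46.8 in shARNT. It rose in shARNT (log2 0.81 ± 0.07, adjusted p = 7.68e-10) and fell in shBMAL1 (log2 -0.51 ± 0.07, adjusted p = 4.45e-06) without overlap. KIF20A (MKLP2), which carries AURKB to the midzone, was at 36.9, 36.0 and 45.2 CPM in shControl, 24.8, 30.3 and 30.9 in shBMAL1, and 17.8, 21.9 and 20.5 in shARNT. This second midzone motor fell in both (log2 -0.97 ± 0.10, adjusted p = 1.09e-08 in shARNT; log2 -0.46 ± 0.09, adjusted p = 0.000302 in shBMAL1), opposite to KIF23 in shARNT. PRC1, which bundles midzone microtubules and overlaps the antisense gene PRC1-AS1, from whose reads it cannot be separated without strand, fell in shBMAL1 (-0.37 ± 0.06) and was not called in shARNT (-0.09 ± 0.06). ANLN (anillin), which links RhoA to the contractile ring, fell in shBMAL1 (-0.46 ± 0.05) and rose by 0.19 ± 0.04 in shARNT.

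Of the chromosome proteins, TOP2A had the highest mean CPM of the 51 genes in shControl and stood at 178, 165 and 199 CPM in shControl, 146, 147 and 161 in shBMAL1, and 91.1, 90.9 and 96.4 in shARNT. It fell in shARNT (log2 -0.96 ± 0.06, adjusted p = 4.69e-12) and by less in shBMAL1 (log2 -0.25 ± 0.06, adjusted p = 0.000774). MKI67, the source of the Ki-67 antigen that coats mitotic chromosomes and is scored in pathology, was at 66.1, 59.1 and 66.4 CPM in shControl, 41.3, 40.8 and 51.2 in shBMAL1, and 55.1, 55.6 and 64.6 in shARNT. It fell in shBMAL1 (log2 -0.52 ± 0.08, adjusted p = 1.13e-05) and was not called in shARNT (-0.13 ± 0.08, adjusted p = 0.135), though it was under 6 of 18 alternatives. The condensin subunit NCAPG fell in both (-0.71 ± 0.09 in shBMAL1, -0.30 ± 0.09 in shARNT), and its partner NCAPH was called in no comparison. Thus TOP2A and MKI67, both in common use as proliferation marks, differed in which depletion lowered them more: TOP2A was lower in shARNT than in shBMAL1 (log2 -0.71 ± 0.06, adjusted p = 6.88e-10), and MKI67 was higher (log2 0.39 ± 0.08, adjusted p = 0.000143).

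The transcription factors of the wave moved by little. FOXM1 was at 35.3, 35.1 and 35.4 CPM in shControl, 29.6, 31.4 and 28.9 in shBMAL1, and 29.8, 28.9 and 31.9 in shARNT, and MYBL2 (B-MYB) at 53.1, 49.3 and 45.5 CPM in shControl, 42.4, 47.3 and 42.2 in shBMAL1, and 59.6, 60.3 and 60.3 in shARNT. FOXM1 fell in both depletions (-0.24 ± 0.06 in shBMAL1, -0.22 ± 0.06 in shARNT), and the direct difference of 0.01 ± 0.06 was not called. MYBL2 rose in shARNT (log2 0.28 ± 0.06, adjusted p = 0.000221) and fell in shBMAL1 (log2 -0.17 ± 0.06, adjusted p = 0.0246), the latter with overlap and lost under 4 of 18 alternatives, among them without shControl replicate 1 (adjusted p = 0.147). The sign of FOXM1 in shARNT turned to 0.0145 with library size alone.

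In the GENCODE annotation on GRCh37, CDC25B lies at chr20:3767419-3786768, UBE2C at chr20:44441215-44445596, TOP2A at chr17:38544777-38574148, AURKB at chr17:8108051-8113918, ECT2 at chr3:172468472-172539264 and CCNB1 at chr5:68462962-68474072. Levels per kilobase of transcript let the genes be ranked within shControl. The median was 6.91 CPM per kb, from 0.670 for CDC25A to 89.9 for UBE2C, with TOP2A at 31.7, PLK1 at 27.5 and CCNB1 at 26.2. In shBMAL1 the same genes marked both ends, with 0.459 for CDC25A and 79.8 for UBE2C. In shARNT the top passed to CDC25B with 82.8 CPM per kb, and KIF15 was lowest with 0.822. Replicates were tight, with a median coefficient of variation across the genes of 7.91% in shControl, 5.74% in shBMAL1 and 5.10% in shARNT.

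Promoters were examined for what the genes share beyond their names. RefSeq promoter windows (GRCh38.p14, 250 bases before to 50 after the start) were matched for 44 of the 51 genes by symbol; UBE2C, BUB3, TPX2, BIRC5, TTK, AURKA and FOXM1 had none in the table. For genes with several starts the first listed was used. The stretches shown here are the 250 bases before the start of CDC20 (fell in shBMAL1, higher in shARNT), TOP2A (fell in both), ECT2 (rose in both) and CDC25B (largest change), chosen after their values were seen. Capitals mark the core of the cell cycle homology region (CHR, TTTGAA), where MuvB complexes bind, and the CCAAT box of NF-Y, on either strand, and each stretch reads 5′ to 3′ along the gene.
CDC20 (chr1:43358731-43358980, plus strand): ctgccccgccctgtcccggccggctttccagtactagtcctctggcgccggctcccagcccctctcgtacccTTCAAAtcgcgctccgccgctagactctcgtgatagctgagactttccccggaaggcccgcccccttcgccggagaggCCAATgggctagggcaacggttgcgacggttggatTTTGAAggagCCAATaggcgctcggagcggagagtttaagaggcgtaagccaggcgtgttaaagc
TOP2A (chr17:40417897-40418146, minus strand): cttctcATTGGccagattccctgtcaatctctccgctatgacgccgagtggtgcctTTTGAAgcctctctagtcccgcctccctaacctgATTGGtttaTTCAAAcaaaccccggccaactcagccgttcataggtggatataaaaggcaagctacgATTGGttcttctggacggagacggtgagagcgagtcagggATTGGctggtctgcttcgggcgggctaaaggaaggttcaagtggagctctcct
ECT2 (chr3:172750476-172750725, plus strand): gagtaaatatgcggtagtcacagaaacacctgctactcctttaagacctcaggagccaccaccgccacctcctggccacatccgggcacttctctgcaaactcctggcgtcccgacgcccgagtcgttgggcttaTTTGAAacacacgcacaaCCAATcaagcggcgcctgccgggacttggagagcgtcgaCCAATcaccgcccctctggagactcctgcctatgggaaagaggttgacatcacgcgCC
CDC25B (chr20:3786701-3786950, plus strand): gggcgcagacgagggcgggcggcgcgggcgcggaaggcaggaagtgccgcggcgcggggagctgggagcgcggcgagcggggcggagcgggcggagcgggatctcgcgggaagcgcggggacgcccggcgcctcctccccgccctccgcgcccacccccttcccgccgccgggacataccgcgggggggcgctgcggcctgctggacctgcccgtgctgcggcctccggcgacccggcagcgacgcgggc
CDC20, TOP2A and ECT2, which moved in 3 different ways, all carried CHR cores and CCAAT boxes in their windows, and the CDC25B window had neither. Of the 4 windows listed for CDC25B, none had a CHR core and 2 had a CCAAT box. The last capitals of ECT2 are the start of a CCAAT box that crosses the transcription start.

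The CHR core was in 29 of the 44 windows (65.9%), against 9.91% of the 10759 tested genes with a window and 15.4% of all 27305. The CCAAT box was in 31 (70.5%), against 36.2% and 35.7%, and both were in 22 (50%), against 4.15% and 6.08%. Cores lay at a median of 28 bases before the start for the CHR and 77 for the CCAAT box (positions -28 and -77). An E2F site (TTTGGCGC or TTTCGCGC) was in 4 windows (9.09%), against 1.96% and 1.18%. By response, 22 of 29 genes with a CHR core and 12 of 15 without fell in shBMAL1, and 9 of 29 and 4 of 15 rose in shARNT. Only TTTGAA in the first listed window counted here, so CDC25C, with a core in other windows alone, was among those without. A match of letters is a description of the sequence and not of binding.

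The E-box CACGTG, to which CLOCK and BMAL1 bind, and the core of the hypoxia response element (ACGTG or GCGTG), to which HIF and ARNT bind, were searched in the same windows. An E-box was in 6 of 44 windows (13.6%), those of CENPF, CENPE, CCNB1, ANLN, PLK1 and MYBL2, against 10.0% of tested genes and 7.43% of all. The hypoxia core, which is also part of this E-box, was in 27 (61.4%), against 62.0% and 48.4%. The CCNB1 stretch is shown as an example, with capitals for both, since every such E-box holds the hypoxia core.
CCNB1 (chr5:69166900-69167149, plus strand): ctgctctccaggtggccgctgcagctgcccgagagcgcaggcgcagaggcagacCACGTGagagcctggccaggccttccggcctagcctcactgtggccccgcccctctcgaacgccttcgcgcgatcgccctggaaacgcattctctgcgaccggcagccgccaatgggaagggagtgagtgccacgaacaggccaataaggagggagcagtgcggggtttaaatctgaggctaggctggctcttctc
All 6 genes with an E-box fell in shBMAL1, as did 28 of the 38 without. The median log2 fold change in shBMAL1 was -0.32 with an E-box and -0.45 without. In shARNT 4 of the 6 rose and 2 fell, and of the 38 without, 9 rose and 14 fell. With the hypoxia core, 8 of 27 genes rose and 8 fell in shARNT, and without it 5 of 17 rose and 8 fell.

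**Figure D5:**
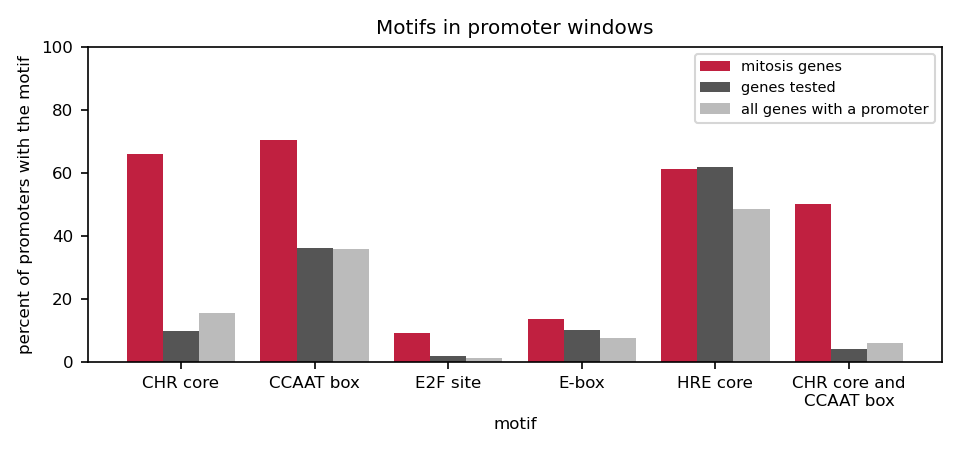
Bars give the percent of promoter windows that hold each motif among the mitosis genes with a window (red, 44 genes), the tested genes (dark gray, 10759) and all genes (light gray, 27305). The CHR core reaches 65.9% in the mitosis genes and 9.91% in the tested genes, while the hypoxia core is at 61.4% and 62.0%.

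Other genes of mitosis, on 7 lists with 108 genes in all, served to see how far the pattern extended. In shBMAL1, 61 fell and 18 rose with a median of -0.23, and in shARNT 35 fell and 51 rose with a median of 0.08. Thus 56.5% fell and 16.7% rose in shBMAL1, where 31.5% and 31.9% of all genes tested did, and 32.4% fell and 47.2% rose in shARNT, where 41.3% and 40.5% did. In the direct comparison 62 were higher in shARNT and 22 lower. With library size alone the lists counted 66 higher and 22 lower in shARNT, and 20 and 57 in shBMAL1. Of the inner kinetochore genes, mostly falls were called in shBMAL1, with 14 of 23 lower and 2 higher, the smallest p-values among the falls being those of ZWINT (-0.74) and CENPT (-0.54). Other G2/M genes had 23 of 34 lower and 3 higher, among them PKMYT1, an inhibitory kinase of CDK1 (mean 24.5 against 49.0 CPM), and LMNB1, which encodes lamin B1 (-0.90). PKMYT1 fell in shARNT as well (log2 -1.41 ± 0.07, adjusted p = 3.22e-13), while WEE1, the other inhibitory kinase of CDK1, rose (log2 0.93 ± 0.06, adjusted p = 5.96e-12). SKA2, of the complex that couples kinetochores to microtubules, rose in both (1.53 in shBMAL1, 1.29 in shARNT), and CDCA2, which recruits a phosphatase to chromatin, had the deepest fall of the list in shARNT (-2.57).

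The APC/C list had more rises than falls in shBMAL1: 8 of its 16 genes rose and 4 fell, with a median of 0.15, and in shARNT 11 rose and 2 fell. The shares called were 75% and 81.25%, against 63.3% and 81.8% of all genes, and those higher 50% and 68.75%, against 31.9% and 40.5%. ANAPC13 (0.78) and ANAPC16 (0.44) had the smallest p-values among the rises in shBMAL1, and ANAPC7 (1.58) and ANAPC2 (0.98) those in shARNT, where CDC23 (-1.08) and ANAPC11 (-0.64) fell. The list also held FZR1 and UBE2S, which are not core subunits. Unlike UBE2C and CDC20, the core subunits are largely present throughout the cell cycle. HJURP, the chaperone of CENPA, fell in shARNT (log2 -1.14 ± 0.06, adjusted p = 7.52e-13), as CENPA did. TRIP13, which recycles MAD2, fell in both depletions (-0.98 ± 0.07 in shBMAL1, -0.97 ± 0.07 in shARNT), and the direct difference of 0.01 ± 0.07 was not called. Among 7 checkpoint and RZZ genes, 3 fell and 1 rose in shBMAL1, and 3 rose and 3 fell in shARNT, shares called of 57.1% and 85.7% that lie near those of all genes (63.3% and 81.8%). In shARNT MAD1L1 had the smallest p among the rises (0.77).

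Cohesin and its protectors (11 genes) counted 5 lower and 2 higher in shBMAL1, and 6 higher and 4 lower in shARNT, with PDS5B (1.24) and NIPBL (0.86) up and STAG1 (-0.76) and STAG2 (-0.34) down. Of 6 further condensin genes, 5 fell in shBMAL1 and the other was not called, and in shARNT 4 fell and 2 rose, with NCAPD3 changing sign between them (-0.58 and 0.89). The partners of MuvB and DREAM (11 genes) had 7 lower and 2 higher in shBMAL1, and 7 higher and 3 lower in shARNT. There E2F4 was at a mean of 38.5 CPM in shControl, 51.9 in shBMAL1 and 101 in shARNT, and the pocket protein RBL2 (p130) at 140, 109 and 67.5. E2F4 rose in both depletions (0.43 and 1.38) and RBL2 fell in both (-0.37 and -1.06), and both are parts of the DREAM repressor. Called shares in shBMAL1 and shARNT were 63.6% and 90.9% for cohesin, against 63.3% and 81.8% of all genes tested. For condensin they were 83.3% and 100%, and for MuvB and DREAM 81.8% and 90.9%.

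Replication genes, which peak earlier in the cycle, were taken for comparison. In shBMAL1, 20 of 22 fell and 2 were not called, with a median of -0.65, a share of 90.9% against 31.5% of all genes. The smallest p-values were those of MCM4 (log2 -1.19 ± 0.05, adjusted p = 1.58e-13), a subunit of the replicative helicase, and RRM1 (log2 -0.86 ± 0.05, adjusted p = 3.19e-12), of ribonucleotide reductase, while the largest fall was in cyclin E2 (CCNE2, -1.45), named after its value was seen. In shARNT 8 rose and 10 fell with a median of -0.03, with the smallest p-values for RFC3 (0.96) and MCM7 (0.40) among the rises and for RRM2 (-0.96) and TYMS (-0.74) among the falls. Of the 22, 81.8% were called in shARNT, as were 81.8% of all genes tested. The direct difference was higher in shARNT for 17 of the 22 and lower for 3, with a median of 0.70. Thus in shBMAL1 the S phase genes were lower by a larger median than the mitosis genes, and in shARNT both sets were split, without a test of the difference between the sets.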

How the data were processed

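RNA of A498 cells in 3 groups (shControl, shBMAL1, shARNT), 3 libraries each, was measured by RNA sequencing. The deposited values were expected counts, total reads per gene without normalization, exported by the authors with ArrayStar after alignment with SeqMan NGen to GRCh37 per their methods. The submitters' processing notes name hg38, STAR and DESeq2 without a role, so the build behind the counts cannot be told from the sources used here. Annotation release, use of strand and handling of reads with several alignments were not stated, and antisense PRC1-AS1 overlaps PRC1. A value of 0.05 stood for no reads and was set to 0, and rows that shared a name (43 names) were summed. Values were rounded to whole counts.

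All 9 libraries were fitted together in edgeR 4.0.16 (R 4.3.3) and tested by quasi-likelihood, with group as the factor, TMM scaling and filterByExpr. The common dispersion was 0.00311. Calls were made at an adjusted p under 0.1 over 15551 genes. Alternatives were DESeq2 1.42.0, other scalings, no filter, 6 libraries, a replicate block, a minimum fold of 1.5, halved counts, removal of a GC trend (14194 genes had a GC content, from GENCODE models on GRCh37), each library left out, and CDC25B left out of the sum, the last chosen after seeing the data. Calls rest on depth of at least 35269851 counts per library, and SE and p-values cover these libraries alone. Computations were tested on simulated data in which a small share of genes changed, up and down alike, in shARNT alone. That setting cannot probe the dependence on scaling.

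The 51 genes and all lists (roles, 7 lists of other mitosis genes, replication genes, cell type markers) were chosen with earlier results of these data known. Values in every library are given for 32 members set by name and for the 3 largest rises and falls of each comparison, and from each list up to 2 genes with the smallest p in each direction. Motifs were searched on both strands of RefSeq promoter windows of GRCh38.p14. A planned search of protein motifs was not run.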

Additional observations from a re-analysis of the deposited data

Results flagged for a closer look

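The effects of the 2 depletions differed in 44 of the 51 mitosis genes, by the direct edgeR test of shARNT against shBMAL1. No control library enters the difference itself, but the filter, the scaling and the estimate of the spread came from all 9 libraries. Of all genes tested, 81.2% differed in the same way. Values are log2 differences, shARNT minus shBMAL1. The lower genes in shARNT were UBE2C (-1.25), TOP2A (-0.71), CENPA (-0.63), KIF20A (-0.51), PTTG1 (-0.42), BIRC5 (-0.36), HMMR (-0.36), KIF2C (-0.35), KIF4A (-0.30), TTK (-0.30) and CENPE (-0.19).

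The higher genes with a difference above 0.5 were CDC25B (2.96), CDC25A (1.93), KIF23 (1.32), ASPM (1.07), AURKA (0.80), MAD2L1 (0.74), CCNB1 (0.74), CDC20 (0.72), CENPF (0.67), ANLN (0.65), ESPL1 (0.65), SPC24 (0.64), CDCA5 (0.59), TPX2 (0.53), NUF2 (0.52) and KIF15 (0.52). CDC25 phosphatases and the midzone motor KIF23 head this group.

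The higher genes with smaller differences were INCENP (0.48), MYBL2 (0.45), BUB1B (0.44), NCAPG (0.42), CCNA2 (0.41), MKI67 (0.39), NDC80 (0.36), ECT2 (0.36), AURKB (0.34), NUSAP1 (0.34), BUB1 (0.30), SPC25 (0.30), KIF11 (0.30), CCNB2 (0.29), PRC1 (0.28), CDCA8 (0.28) and BUB3 (0.24). Some genes of the checkpoint, the passenger complex and condensin are found here beside cyclin A. Others of these roles are not: TTK and BIRC5 were lower, MAD2L1 had a larger difference (0.74) and NCAPH was not called.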

How the results depend on the processing

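With library size alone the mitosis genes counted 26 higher and 12 lower in shARNT (median log2 fold change 0.18), 5 higher in shBMAL1, and 7 lower in shARNT than in shBMAL1 (median 0.53), while the median of all genes moved to 0.23, 0.05 and 0.18. Summed levels were then 1603, 1316 and 2030 CPM in shControl, shBMAL1 and shARNT, and without CDC25B on TMM scaling, an alternative added after seeing the data, 1327 and 1581 CPM in shBMAL1 and shARNT. Of single genes in shARNT, the sign turned with library size alone for CDK1 (0.00472), BUB1 (0.18), BUB1B (0.22), SPC25 (0.22), KIF11 (0.0297), FOXM1 (0.0145), NCAPH (0.19), PTTG1 (0.22) and PRC1 (0.15). Against a minimum fold of 1.5, 44.8%, 13.6% and 43.9% of all genes tested were called in shARNT, shBMAL1 and the direct comparison. Calls of the mitosis genes were fewer by construction, with 25, 36 and 32 lost in the same order. Then 4 were higher and 6 lower in shARNT, and 10 higher and 2 lower in the direct comparison. In shBMAL1 0 were higher and 5 lower. In edgeR's test against that fold the 0 was also 0 at an unadjusted p under 0.05, and it compares with 2 at no minimum fold and 2 in DESeq2.

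With each library left out in turn, shARNT had 15 to 17 genes higher and 18 to 22 lower (median -0.12 to -0.01), shBMAL1 2 to 3 higher and 35 to 39 lower (-0.41 to -0.31), and the direct comparison 32 to 34 higher and 10 to 12 lower (0.28 to 0.36). The replicate numbers did not pair the libraries: deviations of same-numbered libraries correlated at -0.04 to 0.07, and 2 of 9 libraries correlated best with their own number. With the replicate block the counts stayed at 15 higher and 20 lower, 2 and 39, and 33 and 11; KIF15 was no longer called and MKI67 was. Other alternatives kept every count within 1.5 times. Leaving out the minimum fold, 26 of 35, 35 of 41 and 38 of 44 calls in shARNT, shBMAL1 and the direct comparison held under every alternative. Low genes such as CDC25A, with counts down to 56, had among the largest errors.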
